A study of Mus musculus with 3 samples.

Results

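The rod phototransduction cascade was followed through all probe sets on the array for 9 of its genes: Gnat1, Gnb1, Pde6a, Pde6b, Pde6g, Cnga1, Sag, Pdc and Guca1a. A probe set belonged to them when the platform annotation gave it 1 of these symbols and no other, which took 13 of the 12422 probe sets that were not controls, for 9 of 8251 genes. Gnb1 had 3 probe sets, Pde6b and Pdc had several as well, and the other 6 genes had 1 each. The arrays measured total RNA of neural retina from 3 pools of wild-type mice at postnatal day 7, each pool holding the retinas of 3 to 4 animals collected between 1 and 2 pm. The animals, of mixed 129/SvEv and C57BL/6 background, were littermates of Rp1-/- mice. All samples were of 1 group, with no treatment or mutant to compare, so the data show which members had signal and how far each differed between pools. The pool numbers are names only.

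In a rod, light-activated rhodopsin switches on transducin, whose alpha subunit is encoded by Gnat1 and whose beta subunit is encoded by Gnb1. Transducin in turn releases the catalytic subunits of phosphodiesterase 6 (Pde6a and Pde6b) from their inhibitory subunit (Pde6g), cyclic GMP falls, and the cation channel formed with Cnga1 closes. The response is ended by arrestin (Sag), which caps phosphorylated rhodopsin, and by GCAP1 (Guca1a), which restarts cyclic GMP synthesis when calcium drops, while phosducin (Pdc) binds the beta-gamma subunits of transducin. In the mouse, rods grow their outer segments, which hold the cascade, over the weeks after birth. Gnb1 differs from the other members in being used by many cell types, whereas the rest are photoreceptor genes in the retina.

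Most of the cascade had signal above background. Among tested members above background in every pool, the probe sets of Gnb1 had the widest spread between pools. The wide spread of Gnat1 rested on a value under background. An intensity counted as above background when it passed the 90th percentile of 80 probe sets for 68 genes that other organs use, among them testis, liver and pancreas. This bar lay at 359, 368 and 376 in pools 1, 2 and 3. Of the 13 probe sets, 10 passed this bar in all pools, against 33.6% of all probe sets, and they came from 7 of the 9 genes. Gnat1 passed it in pools 2 and 3 alone, and Pde6a in no pool. Spread between pools was tested on 12 of the 13 by asking whether a probe set varied more over the arrays than others of its brightness, and 2 had excess spread, against 1.34% of the 6211 tested (limma's prior variance, Benjamini-Hochberg adjusted p below 0.05). They were the probe set of Gnat1, whose call uses a value under the bar, and 1 of Gnb1. With the scaling as deposited, and also after quantile normalisation, 0 of the members and 6 probe sets over the array were called, in place of 2 and 83. All intensities below were scaled to the median of each array. Brightness depends on the probe as well as the transcript, so levels are compared between pools and never between probe sets. In whole retina, fewer rods and less RNA per rod cannot be told apart.

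**Figure D1:**
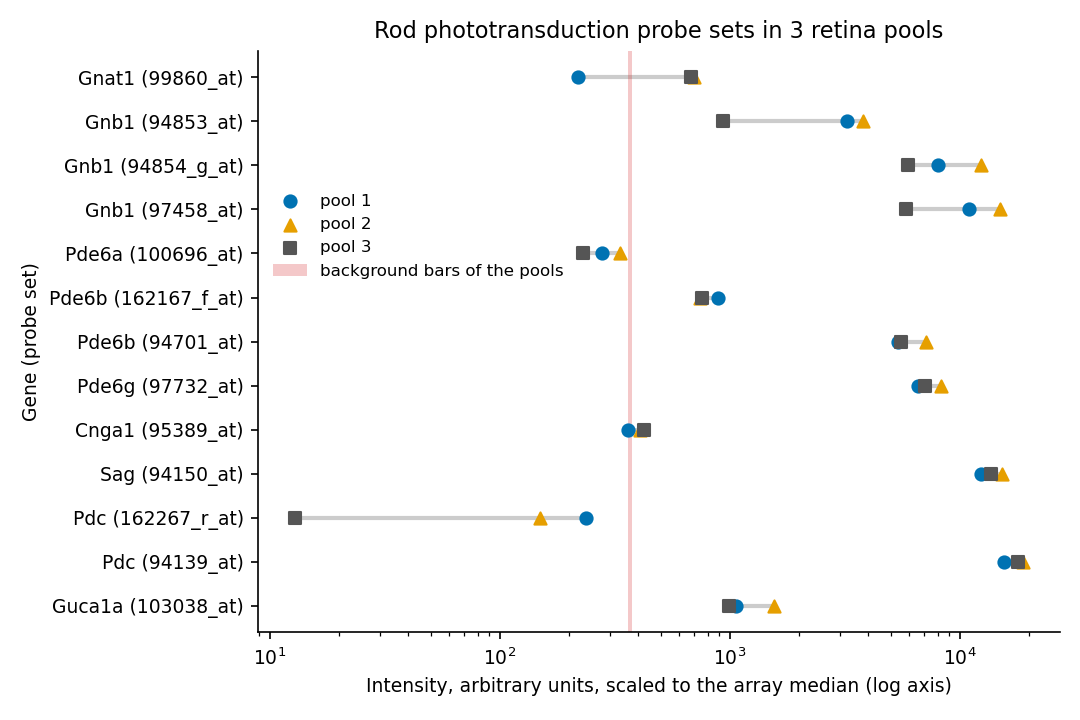
Scaled intensity (arbitrary units, log axis) of the 13 rod cascade probe sets, 1 row each, with 1 point per pool, a grey line from the lowest to the highest pool, and a red band over the background bars, 359 to 376. Gnat1 in pool 1, Pde6a in every pool and 162267_r_at of Pdc in every pool lie left of the band, and the Gnb1 rows have pool 3 at their low end.

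Gene starts of 3 members are printed here because they set the gene whose 3 probe sets all came out lowest in pool 3, Gnb1, beside Sag and Pde6b, photoreceptor genes that stayed close over the pools. The windows run from 250 bases before to 50 bases after the transcript start and come from RefSeq on GRCm38.p6: chr4:155491111-155491410 (plus strand) for Gnb1, chr1:87803430-87803729 (plus strand) for Sag and chr5:108388123-108388422 (plus strand) for Pde6b. Windows of 6 of the 9 members were examined. Capitals mark matches, on either strand, to TAATCC (the core bound by the photoreceptor factor CRX and its OTX relatives), to TGCTGA (a core of sites for the rod factor NRL) and to GGGCGG (the GC box of Sp1).
Gnb1: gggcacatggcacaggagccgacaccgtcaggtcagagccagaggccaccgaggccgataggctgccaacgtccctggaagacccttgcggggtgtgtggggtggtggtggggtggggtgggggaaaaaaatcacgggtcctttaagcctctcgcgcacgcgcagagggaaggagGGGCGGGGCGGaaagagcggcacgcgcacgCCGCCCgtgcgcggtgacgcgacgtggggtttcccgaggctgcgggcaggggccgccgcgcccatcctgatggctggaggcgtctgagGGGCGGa
Sag: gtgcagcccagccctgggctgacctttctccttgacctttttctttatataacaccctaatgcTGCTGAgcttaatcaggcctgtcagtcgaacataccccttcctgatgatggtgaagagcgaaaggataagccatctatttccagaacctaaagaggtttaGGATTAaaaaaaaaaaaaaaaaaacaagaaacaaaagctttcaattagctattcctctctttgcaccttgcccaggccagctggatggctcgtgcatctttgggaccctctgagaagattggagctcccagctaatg
Pde6b: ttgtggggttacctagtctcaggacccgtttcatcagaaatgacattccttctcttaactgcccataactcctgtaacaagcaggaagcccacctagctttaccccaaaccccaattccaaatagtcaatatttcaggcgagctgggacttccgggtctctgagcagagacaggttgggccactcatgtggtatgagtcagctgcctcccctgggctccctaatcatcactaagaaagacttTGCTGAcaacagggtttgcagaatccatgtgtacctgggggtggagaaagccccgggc
The Gnb1 window had a GC content of 70.3% and held 4 GC boxes, of which the first pair share 1 base, and neither photoreceptor core. The Sag window (44.7% GC) held 1 CRX core and 1 NRL core, and the Pde6b window (51.3% GC) held 1 NRL core, next to the transcript start. Among the windows not printed, those of Cnga1 and Guca1a each held 1 CRX core. That of Pdc held none of the motifs, though its main probe set had the same SD over the pools as Sag, 0.15. Over all 32851 windows in the table, 7.06% held TAATCC, 19.5% TGCTGA and 35.7% GGGCGG on either strand, and the median GC content was 52.7%. These matches describe letters in the window and were not tested for binding or for a link to the spread between pools. CCAAT and TATAAA were also searched and are not marked.

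Gnat1, the alpha subunit that carries the signal from rhodopsin to the phosphodiesterase, was low in 1 pool. Its single probe set was at 219 in pool 1, 699 in pool 2 and 680 in pool 3. Pools 2 and 3 were thus close to each other, and pool 1 lay under its background bar. Because the pool 1 value is under the bar, the difference is given as a bound. By the mean of their log2 values, pools 2 and 3 together were at least 1.92-fold higher. The SD on the log2 scale was 0.95, where probe sets of that brightness had a prior SD of 0.32 (limma adjusted p = 0.0162, n = 3 pools). Both the SD and the p-value use the pool 1 value under the bar, so the size of this spread was not measured. The test was not repeated with pool 1 set at its bar. In the values as deposited Gnat1 was at 228, 641 and 709, so pool 1 was the low one under that scaling too. The call was lost with the deposited scaling (adjusted p = 0.543), after quantile normalisation (0.399), and when pool 1 (0.996), pool 2 (0.672) or pool 3 (0.0575) was left out. The SD itself was 0.91 with the deposited scaling and 0.95 after quantile normalisation, while limma's prior degrees of freedom, the weight given to the common spread, fell from 279 to 8.56 and 8.66. The limma adjusted p was 0.266 with dim probe sets included in the test, and 0.137 with limma's robust option turned off.

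Other genes also had a low value in pool 1. Among tested probe sets with 1 gene, the log2 deviations closest to those of Gnat1 over the 3 pools belonged to Celf1, an RNA-binding protein gene (164, 515 and 478), to Mip, the water channel gene of lens fibres (193, 658 and 651), and to Prcc (342, 1027 and 971). Their distances from Gnat1 were 0.07, 0.09 and 0.09 on the log2 scale. The pool 1 values of Celf1, Mip and Prcc also lay under the bar of 359, so these distances use values that were not measured. With 3 pools such likeness is weak, since many probe sets share an order. Lens genes were low in pool 1 as a list: their 17 probe sets summed to 55055, 245030 and 267748, and 12 of 13 tested had pool 1 as the lowest. The ratio of the 3' to the 5' control probe set of Actb was also highest in pool 1, at 1.81 against 1.27 and 1.30. For Gapdh the pools lay closer together, at 0.87 in pool 1 against 0.79 and 0.81 in pools 2 and 3. The part of lens tissue or RNA quality in the Gnat1 value was not tested. The main probe sets of Sag, Pdc, Pde6b and Pde6g were also lowest in pool 1 by these values, but within 1.33-fold of the highest pool, and of them Pde6g alone kept that pool after quantile normalisation.

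Gnb1, the beta subunit gene shared by transducin and other G proteins, was lowest in pool 3 by every probe set. Probe set 94853_at was at 3239, 3783 and 934 in pools 1, 2 and 3. Pools 1 and 2 lay close together and were 3.75-fold above pool 3 by the mean of their log2 values. The SD was 1.11 on the log2 scale, against a prior SD of 0.28 (limma adjusted p = 9.67e-05), and 0.338% of the tested probe sets had a lower p.

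The other 2 probe sets moved in the same direction by less. Probe set 97458_at, built from another source sequence, was at 10928, 14984 and 5848, with pool 3 lower by 2.19-fold. Probe set 94854_g_at, from the same source sequence as 94853_at, was at 8011, 12398 and 5953, with pool 3 lower by 1.67-fold. Their SDs were 0.69 and 0.53, and neither passed the test across the array (limma adjusted p = 0.159 and 0.636, unadjusted p = 0.00331 and 0.0314). The pools thus had 1 order by all 3 probe sets, pool 2 over pool 1 over pool 3, and all values were far above the bar. Without scaling that order was the same, and after quantile normalisation pool 1 was the highest for 94853_at and 97458_at, with pool 3 lowest for all 3.

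The call for 94853_at rested on pool 3 and on the scaling. It was lost without pool 3 (adjusted p = 0.996), without pool 2 (0.176), with the deposited scaling (0.108) and after quantile normalisation (0.0828), and held without pool 1 (0.00288). It was also lost when dim probe sets were tested too (0.266). Its SD moved little, being 1.05 without scaling and 1.04 after quantile normalisation. The tested probe sets nearest to 94853_at in their deviations were those of Pts, Osbpl5 and Arcn1, at distances of 0.07, 0.12 and 0.12. Pts, an enzyme gene of tetrahydrobiopterin synthesis, was at 951, 1132 and 294. Osbpl5, an oxysterol-binding protein relative, was at 625, 707 and 161, and Arcn1, a coatomer subunit gene, at 990, 1263 and 278. Their pool 3 values all lay under the bar of 376, so these distances use values that were not measured.

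**Figure D2:**
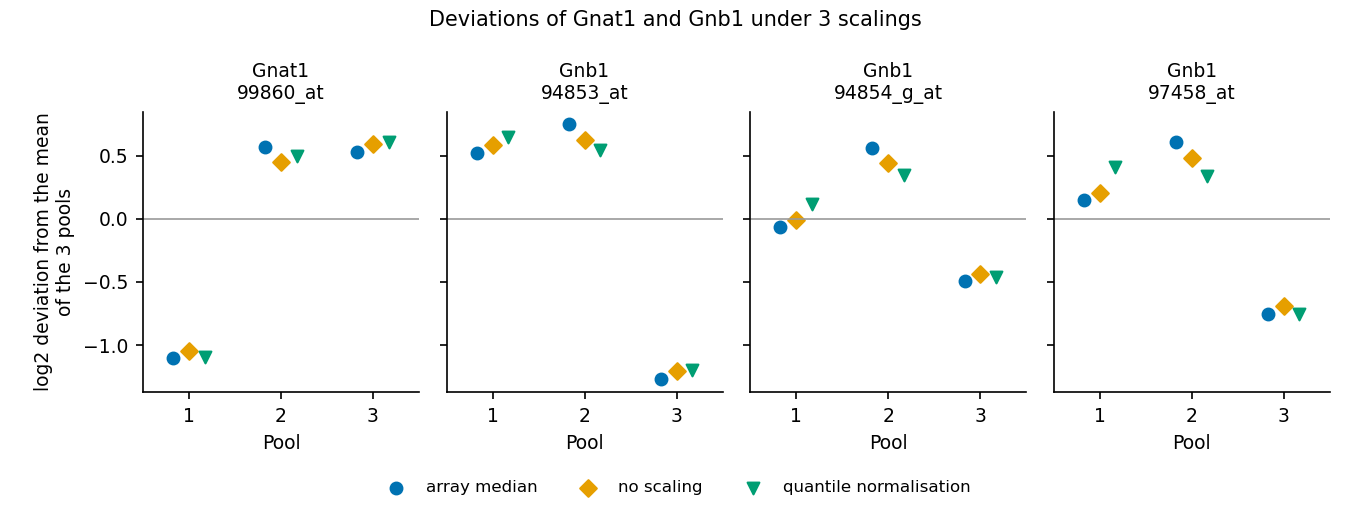
log2 deviation of each pool from the mean of the 3 pools (vertical axis) for the Gnat1 probe set and the 3 of Gnb1, with 1 panel per probe set, in the order 94853_at, 94854_g_at and 97458_at for Gnb1, pools on the horizontal axis and marker shapes for 3 scalings of the arrays. Under each scaling pool 1, whose value is under the background bar, is the low pool of Gnat1, and pool 3 that of all Gnb1 panels. With array medians the pool 3 deviations of Gnb1 are -1.27, -0.50 and -0.75.

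Pde6b and Pde6g had no excess spread between pools, and Pde6a was not measured above background. Pde6b, a catalytic subunit, was at 5400, 7155 and 5523 by its main probe set 94701_at (6026 ± 980, mean ± SD, n = 3), and its highest pool was 1.33-fold over its lowest. A further Pde6b probe set, 162167_f_at, of a kind that can match related transcripts, was at 892, 742 and 758. The 2 did not rank the pools alike: pool 2 was the highest by the first and the lowest by the second, with a spread under that of other probe sets of their level in both cases (SD 0.23 and 0.15 against 0.28 and 0.29). Pde6g, the inhibitory subunit, was at 6604, 8277 and 7074, with an SD of 0.17 on the log2 scale. Pde6a, the partner of Pde6b in the catalytic dimer, was at 279, 334 and 231, under the bar in each pool, so that neither its level nor the order of its pools was measured. A value under the bar does not show that the gene was silent. With the 75th percentile of the unrelated tissues as the bar (155 to 192), Pde6a and Gnat1 passed in all pools and the count rose to 12 of 13.

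Cnga1, the channel subunit at the end of the cascade, stood just over the bar. It was at 360, 407 and 425, and its pool 1 value cleared the bar of 359 by about 1 unit. Its SD was 0.12 on the log2 scale, and 0.14 both without scaling and after quantile normalisation. It fell short of a bar set at the 95th percentile, which left 9 of 13. Its lowest pool was pool 1 after scaling and pool 2 as deposited, a difference of 375 against 374.

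No gene that shuts off or adapts the response had excess spread. Sag, rod arrestin, was at 12305, 15211 and 13639 (13718 ± 1455), an SD of 0.15 on the log2 scale. Pdc, phosducin, was at 15506, 18882 and 17974 by its main probe set 94139_at (17454 ± 1747), again an SD of 0.15. Both genes were far above the bar in every pool, and neither differed between pools beyond the spread of probe sets as bright (limma adjusted p = 0.992 for each). Guca1a, the GCAP1 gene, was at 1061, 1552 and 990, with pool 2 up to 1.57-fold over the others, an SD of 0.35 and a limma adjusted p of 0.992.

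A further Pdc probe set, 162267_r_at, gave another picture. It was at 237, 150 and 12.9, under the bar in every pool and too dim to be tested, and is of a kind chosen under relaxed design rules. These values are not measured levels, so no fold is given. They bear on no pool order of Pdc, whose main probe set had pool 3 close to pool 2.

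Across the 12 tested members, the median spread was close to that of the array. The median SD was 0.25 on the log2 scale, against 0.26 over all 6211 tested probe sets, and it was 0.27 over all 13, or 0.17 without pool 2. Without pool 2 the tested members had a median SD of 0.17 and all tested probe sets 0.20. In 4 of the 12 the measured value of the highest pool was more than 2-fold over the lowest, against 8.63% of all tested, and in 4 the unadjusted p was below 0.05, against 6.76%. These were the same 4 probe sets, the 1 of Gnat1 and the 3 of Gnb1, and the latter share a gene and are not independent. For Gnat1 the lowest value is under the bar, so a difference above 2-fold is not established for it. The other 8 lay within 1.57-fold. Among tested members the wide spreads with every pool above the bar thus belonged to Gnb1 alone, while that of Gnat1 rested on a value under the bar. Of the 3 Gnb1 probe sets 1 passed the test. Its call and that of Gnat1 were lost with the deposited scaling and after quantile normalisation. The phosphodiesterase, channel, arrestin, phosducin and GCAP1 genes had no probe set that passed the test.

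**Figure D3:**
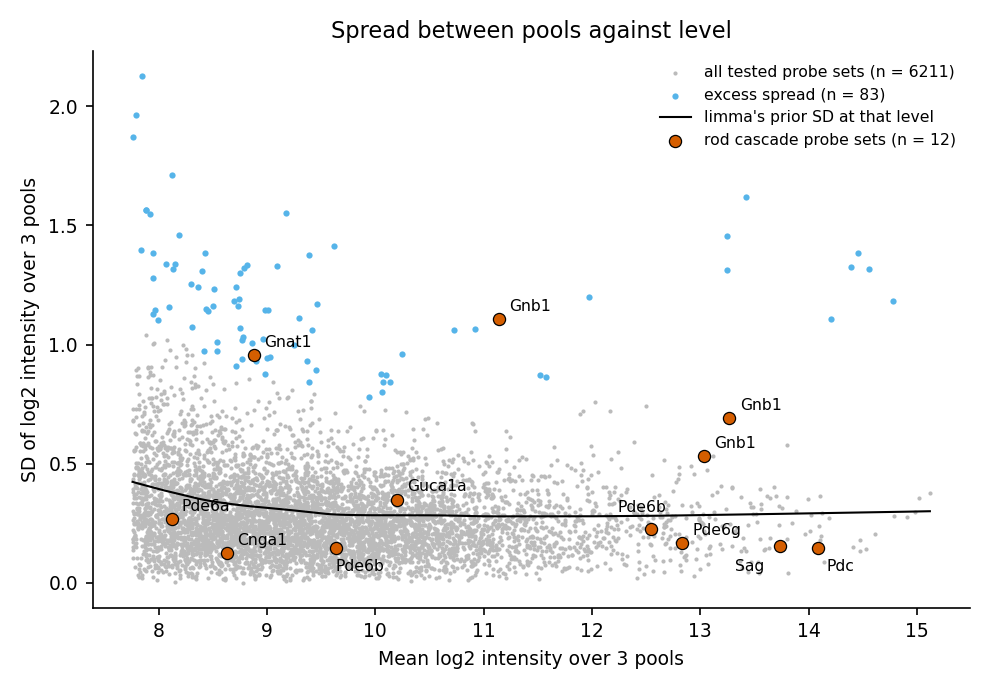
SD of log2 intensity over the 3 pools (vertical axis) against mean log2 intensity (horizontal axis) for the 6211 tested probe sets, with the 83 that had excess spread in blue, the 12 rod cascade probe sets in orange and limma's prior SD as a line. Gnat1 (0.95) and 1 probe set of Gnb1 (1.11) lie among the blue points, 2 further Gnb1 probe sets lie above the line, and 7 of the remaining 8 lie under the line, with Guca1a above it at 0.35.

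Of the 12 tested members, Pde6a included though under the bar, 10 were highest in pool 2, against 3105 of the 6211 tested over the array. Before scaling to the median, which lowered pools 1 and 3 by 0.06 and raised pool 2 by 0.12 on the log2 scale, 7 of 12 were highest in pool 2, against 31.2%. The lowest pool was pool 1 for 6, pool 2 for 1 and pool 3 for 5 of the 12, against 37.6%, 19.5% and 42.9% of all tested. The median log2 deviation of the members was -0.14, 0.26 and -0.09 in pools 1, 2 and 3, and that of all tested probe sets was -0.04, 0.11 and -0.07. Of the 11 probe sets above the bar in at least 1 pool, 7 had the same lowest pool under the array-median, deposited and quantile scalings. Sag, Cnga1 and the main probe sets of Pdc and Pde6b did not, so the order of pools given for these holds with array medians and not under every scaling. A kept lowest pool does not mean that the full order was kept. Gnat1 was highest in pool 2 with array medians and in pool 3 under the deposited and quantile scalings.

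The remaining genes of the rod cascade, from a list of 21, showed no excess spread. A probe set named for 8 of them was measured. Of these 8 probe sets 5 were above the bar in all pools, and 0 of the 7 tested had excess spread by limma's adjusted p, with 0 at an unadjusted p below 0.05. Rcvrn, recoverin, which inhibits rhodopsin kinase, was at 1188, 1468 and 996. Gucy2e, a photoreceptor guanylate cyclase, was at 182, 371 and 185, over the bar in pool 2 alone by 371 against 368. Rgs9, which speeds the shut-off of transducin, was at 79.3, 98.1 and 77.9, under the bar. Rhodopsin itself was not analysed here.

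No cone counterpart or G protein relative had excess spread. The median SD was 0.34 on the log2 scale for the 4 tested cone cascade probe sets and 0.25 for the 15 tested relatives. In the cone cascade list 4 of 6 measured probe sets were above the bar and 0 of 4 tested had excess spread, with 1 (Gnb3) at an unadjusted p below 0.05. Opn1sw, the short-wavelength cone opsin, was at 1258, 2014 and 1674. Opn1mw, the other cone opsin, was at 152, 49.0 and 168, under the bar. Gnat2, the cone relative of Gnat1, was at 931, 868 and 909, an SD of 0.05, so that pool 1 was not low for it. Gnb3, the cone relative of Gnb1, was at 4122, 6922 and 3463, with pool 3 lowest (limma adjusted p = 0.641).

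In the list of other G protein and arrestin genes 11 of 26 probe sets were above the bar and 0 of 15 tested had excess spread, with 0 below 0.05 unadjusted. Gnb2, a beta subunit gene used widely, was at 5784, 9798 and 6049, with pool 1 the lowest here and pool 3 the lowest after quantile normalisation. Gnb4 (218, 84.9 and 87.5) and the gamma subunit gene Gng2 (158, 173 and 256) were under the bar.

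Genes of rod identity and of the outer segment, the part of the rod that holds the cascade, had signal throughout. All 10 of their measured probe sets, for 8 of 13 listed genes, were above the bar. Nrl, the rod fate factor, was at 777, 617 and 487, and Crx, a factor that switches on photoreceptor genes, was at 5536, 8066 and 7203. Excess spread was seen for 2 of the 10, namely Prph2, a disc rim protein gene (1261, 981 and 3901, limma adjusted p = 0.000291), and 1 of the Rom1 probe sets (2128, 686 and 819, limma adjusted p = 0.0097). The other Rom1 probe set was at 2678, 3239 and 2613 and did not pass. Neither of the probe sets with excess spread had the pool order of Gnat1 or of Gnb1: Prph2 was highest in pool 3 and lowest in pool 2. Both calls were lost with the deposited scaling, and 0 to 1 of the 10 were called when a pool was left out.

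**Figure D4:**
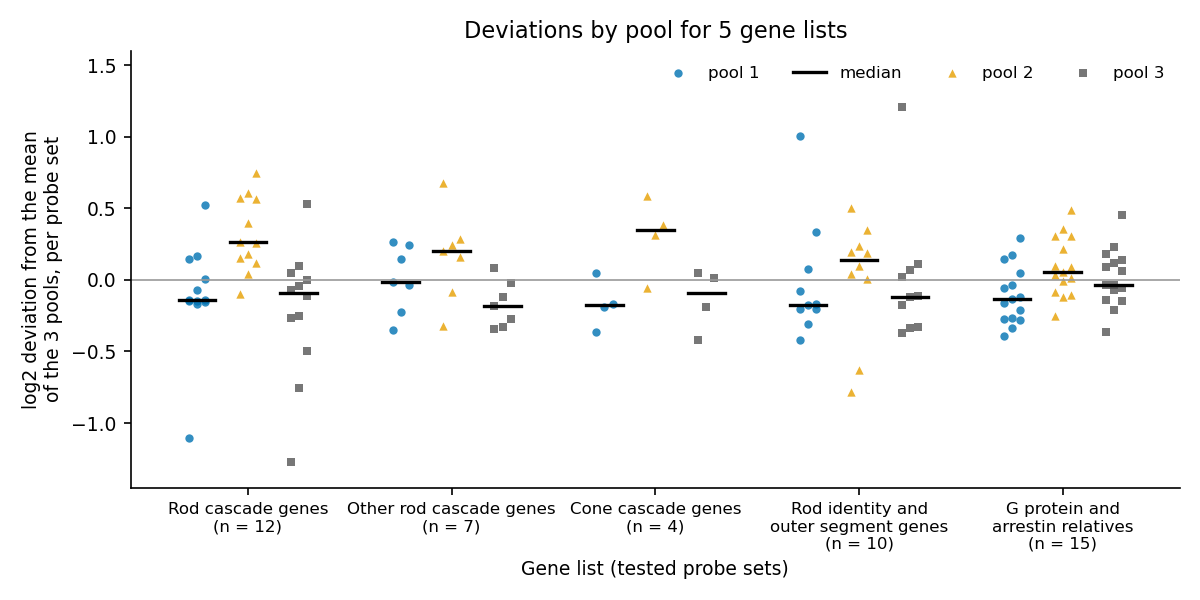
log2 deviation from the mean of the 3 pools (vertical axis) of each tested probe set in 5 gene lists (horizontal axis, number of probe sets under each name), with 1 marker shape per pool and a black line at the median. The rod cascade medians are -0.14, 0.26 and -0.09 in pools 1, 2 and 3, and the points furthest from 0 among them are Gnat1 in pool 1 and Gnb1 in pool 3.

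Tissue that dissection can carry over was mostly dim, apart from lens and blood. Excess spread was called for 12 of 13 tested lens probe sets, from Cryaa, Crygs, Crygc, Crygb, Crygd, Cryge, Cryba1, Crybb2, Mip and Bfsp1, and for 1 of 17 from the unrelated tissues, Cela1. Of the pigment epithelium probe sets 1 of 10 was above the bar in all pools (Rlbp1, which Müller glia also make), while Tyr, Tyrp1 and Dct were not. Of the microglia probe sets 1 of 16 was (C1qc), and Cx3cr1, C1qa and C1qb were not. Of the blood probe sets 2 of 7 were (Hba-a1 and Hbb-b2, not Alas2), and their list summed to 3865, 7975 and 3524, highest in pool 2. The sums of the pigment epithelium list (4204, 4266 and 3815) and of the microglia list (3630, 3653 and 3907) lay in narrower ranges. The part of these tissues in the members' values was not tested. In the deposited table the mean without the lowest and highest 2% was 500.2 to 500.3 in each array, and its medians over the probe sets that were not controls were 208 to 236.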

How the data were processed

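Per the labels, total RNA of 3 pooled retina samples was hybridised to MG-U74Av2 arrays. The authors deposited 1 intensity per probe set and array on a linear scale (0.1 to 55245.8); software, background correction and detection calls were not given in the sources used. Gene names came from the platform annotation, with symbols other than those of the members updated by gene ID through RefSeq. Besides 66 controls the array had 12422 probe sets, 10833 with 1 gene, 396 with several and 1193 with none here, and those with several or none were given no name. Arrays were scaled to the mean of their medians, floored at the 20th percentile (42.2) and put on the log2 scale.

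The 50% of probe sets with the highest mean log2 value were tested. Each variance between arrays, on 2 residual degrees of freedom, was divided by the prior variance that squeezeVar gave (limma 3.58.1, R 4.3.3, robust, following the mean level), for an upper-tail F test at the highest prior degrees of freedom it gave, with Benjamini-Hochberg adjustment over all 6211 and a threshold of 0.05. The procedure was run on simulated data with normal noise at limma's prior SD. That setting cannot show how the test behaves when spreads differ between probe sets of like brightness. Nothing says whether the pools differ in more than their animals, so p-values measure only the spread between these samples. Likeness was the Euclidean distance between log2 deviations. No array was present more than once (at most 12 equal values between any pair). The number of arrays limits the precision.

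All probe sets of the 9 genes are given. From each further list the first 3 measured genes, and any with excess spread, are named. Gnb3, Rlbp1 and C1qc were also named after their values were seen, and the genes nearest in likeness by a rule (the 3 nearest). The members, lists and tests were chosen with earlier results of these data known. Alternatives were no scaling, quantile normalisation, another floor, a pseudocount of 50, other filters and bars, no robust option, 1 prior variance and leaving out each pool.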

Additional observations from a re-analysis of the deposited data

How the results depend on the processing

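The number of rod cascade probe sets above background stayed between 9 and 12 of 13 under the alternatives, against 10. Excess spread, called for 2, was called for 0 as deposited, 0 with quantile normalisation, 0 when dim probe sets were tested too, 1 (Gnb1) among the brightest 25%, where Gnat1 was too dim to enter, 1 (Gnb1) without limma's robust option, and 0 to 1 with a pool left out. It was 2 with a pseudocount, with another floor and with 1 prior variance. Over the whole array the 83 calls became 6 as deposited (313 with an unadjusted p below 0.05), 6 with quantile normalisation (338), 0 when dim probe sets were tested (141), 27 among the brightest 25%, 38 without the robust option, and 9 to 30 with a pool left out. The members' median SD, 0.27, was 0.17 without pool 2 and lay between 0.17 and 0.26 with a pool left out. No member gained a call under any of these alternatives. The limma adjusted p ranged from 0.0162 to 0.996 for Gnat1 and from 4.25e-05 to 0.996 for Gnb1 probe set 94853_at. Prior degrees of freedom fell from 279 to 0.851 without the filter. No paired analysis was possible because all samples were of 1 group. Intensities near the bar, those of Pde6a, Cnga1 and Gnat1 in pool 1, limit what can be said of these genes. With 3 arrays, a spread carried by 1 pool has no replicate.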
